A study of Mus musculus with 9 samples.

Results

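Nfil3 and 9 genes of the circadian clock and its D-box output branch were followed in differentiating neural stem cells (NSCs), as 10 of the 48526 genes counted. Nfil3 was chosen by its rise at 1 h in these same counts, so its values are given below as a description and without a test. Dbp, Tef, Hlf, Per1, Per2, Nr1d1, Nr1d2, Arntl (also called Bmal1) and Clock were taken by name as the genes that Nfil3 shares binding sites or feedback loops with. All 10 genes passed the filter on low counts, with between 239 and 13159 reads per gene and library.

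The cells were NSCs from the subependymal zone (SEZ) of adult wild-type C57BL/6 mice (C57BL/6J in the methods of the study) aged 2 to 4 months, grown as neurospheres. The 0 h group was undifferentiated. The 1 h and 6 h groups were on an adhesive substrate without EGF, while FGF was kept. For cells fixed early after induction, the methods of the study describe an earlier seeding in complete medium, which holds EGF. They do not say whether the RNA-seq cultures, or the 0 h group, were plated in this way. The part of plating and of the change of medium in the values at 1 h and 6 h was not tested. There were 3 replicates of each group and 9 mRNA libraries in all. No gene was deleted and no drug was given in any group. Libraries with the same replicate number deviated together from their time point means, but the sources do not say which culture or mouse a number stands for, so that p-values measure the spread between these samples. The clock time at which each culture was collected is not given in the sources used here, and time since induction and clock time cannot be told apart. In such bulk samples, fewer cells of a type and less RNA per cell cannot be told apart either.

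The circadian clock of mammalian cells is a loop of transcription and repression. CLOCK and ARNTL bind E-boxes and drive the Per and Cry genes, whose products block them, and they also drive Nr1d1 and Nr1d2, whose products (REV-ERBα and REV-ERBβ) repress Arntl through ROR elements. DBP, TEF and HLF, the PAR bZIP factors, activate genes through D-boxes, and NFIL3 (also called E4BP4) represses through the same sites. Per1 is also an early responder to cAMP and calcium signals, and Nfil3 is induced by several cytokines and hormones.

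The letters of these elements were looked for in the RefSeq promoter windows (GRCm38.p6, 250 bases before to 50 after each start), which were found for 9 of the 10 genes and 14 starts. The elements were the E-box CACGTG, the D-box TTATGTAA or TTACGTAA, the core AGGTCA of ROR elements, the same core with a T before it (TAGGTCA, which overlaps the former), and the CRE TGACGTCA, on both strands. AGGTCA stood in 5 of the 14 windows, against 16.3% of all 32851 windows, and TAGGTCA in 2, those of Nfil3 and Arntl, against 2.61%. CACGTG stood in 3 windows of Per1 and Tef, against 7.15% of all, and TGACGTCA in 1, that of Hlf, against 1.79%. Neither D-box word was found in the 14 windows, against 0.938% and 0.119% of all. All matches of the ROR core, the E-box and the CRE in the 14 windows are shown, since these are the elements through which the genes are known to regulate each other or to respond to cAMP. Capitals mark the letters searched, each site is read 5′ to 3′ on the strand that holds the capitals, and a match is a description of the sequence only.
Nfil3, chr13:52981034-52981063, + strand: atgtgtgttagtAGGTCAgttccgagcgcc
Arntl, chr7:113207530-113207559, + strand: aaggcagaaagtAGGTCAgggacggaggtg
Nr1d2, chr14:18239166-18239195, - strand: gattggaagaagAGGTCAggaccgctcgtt
Clock, chr5:76303604-76303633, + strand: ctgtcatctgtcAGGTCAgaggccaaagct
Per1, chr11:69098800-69098829, - strand: tggcccccactgAGGTCAgggctgtgtcac
Per1 (E-box), chr11:69098771-69098800, + strand: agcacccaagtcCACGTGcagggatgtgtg
Tef, chr15:81802534-81802563, + strand: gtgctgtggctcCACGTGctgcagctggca
Tef (second start), chr15:81811264-81811293, + strand: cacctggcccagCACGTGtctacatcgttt
Hlf, chr11:90390908-90390937, - strand: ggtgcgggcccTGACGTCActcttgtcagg
The letters AGTAGGTCA were common to the Nfil3 and the Arntl site and stood in 0.192% of all windows, a word chosen after the sequences had been seen. In Nfil3 it lay at position -12 from the start, on the strand opposite to the gene, and in Arntl it began at position 29 after the start, on the strand of the gene.

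The repressor Nfil3 (ENSMUSG00000056749, chromosome 13, 52967209 to 52981073, minus strand, 2 exons) was low before induction, when per kb of exon only Dbp was lower among the 10 genes. At 0 h its expression, in CPM (counts per 1000000 reads of the scaled library), was 4.62, 4.58 and 4.75 in replicates 1, 2 and 3. At 1 h it was 26.2, 19.0 and 22.4 CPM, and at 6 h 10.1, 11.8 and 8.05 CPM. The 3 groups did not overlap, with all 1 h libraries above all 6 h libraries and these above all 0 h libraries. The mean at 1 h was 4.85-fold that at 0 h, and the mean at 6 h was still 2.15-fold that at 0 h. On the log2 scale the fitted change was 2.28 (SE 0.17) from 0 h to 1 h, 1.10 (SE 0.17) from 0 h to 6 h and -1.17 (SE 0.17) from 1 h to 6 h. Replicate 1 was the highest at 1 h and replicate 2 the lowest at 1 h but the highest at 6 h.

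**Figure D1:**
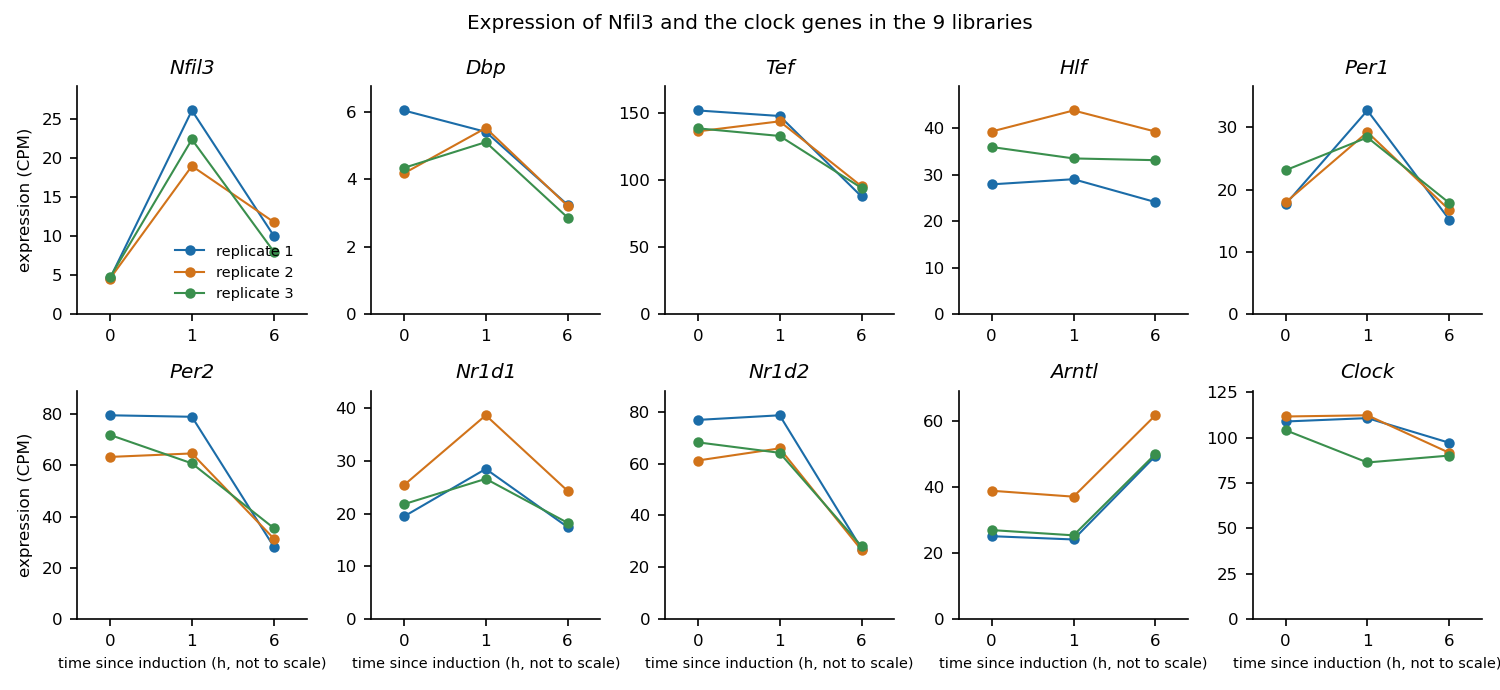
Expression (CPM, linear axis from 0) of the 10 genes against time since induction (h), with 1 line per replicate number. Nfil3 peaked at 1 h, between 19.0 and 26.2 CPM, Tef, Per2 and Nr1d2 were lower at 6 h than at both earlier times in all replicates, and Arntl was higher.

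Of the PAR bZIP activators, Tef fell at 6 h in both fits, Dbp fell in the fit with the replicate block, and Hlf was not called. Dbp (ENSMUSG00000059824, chromosome 7, 45705088 to 45710203), a strongly rhythmic gene in many tissues, stood at 6.04, 4.18 and 4.34 CPM at 0 h. It was at 5.41, 5.52 and 5.10 CPM at 1 h and at 3.24, 3.21 and 2.87 CPM at 6 h. The 0 h and 1 h values overlapped, and the 6 h values were below all others. The mean at 6 h was 1.56-fold lower than at 0 h, a log2 change of -0.64 that did not pass the test without the replicate block (adjusted p = 0.0939, edgeR with Benjamini-Hochberg). In the fit that also took the replicate number as a block, the change was -0.63 (SE 0.12) and passed (adjusted p = 0.00104, edgeR with Benjamini-Hochberg). From 1 h to 6 h the log2 change was -0.78 without the block (adjusted p = 0.0596) and -0.79 with it (adjusted p = 0.000208, edgeR with Benjamini-Hochberg). At 1 h against 0 h it was 0.15 with the block, with 2 SE on either side spanning -0.07 to 0.38. Exons of Dbp overlap those of Sphk2 on the opposite strand, and the strand setting of the counting is not given in the sources used here, so reads of this pair cannot be told apart. Sphk2 itself had a log2 change of 0.29 at 6 h with the block, opposite in sign to that of Dbp.

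Tef (ENSMUSG00000022389, chromosome 15, 81802421 to 81826863) was the most abundant of the activators per kb of exon at all 3 times. It had 152, 137 and 139 CPM at 0 h, 148, 144 and 133 CPM at 1 h, and 88.0, 95.6 and 94.4 CPM at 6 h. The values at 6 h were below those of every earlier library, and those of 0 h and 1 h overlapped. Tef fell by 0.62 on the log2 scale (SE 0.07) from 0 h to 6 h, with an adjusted p of 0.00918 (edgeR with Benjamini-Hochberg), and it was lower in 3 of 3 replicates. From 1 h to 6 h it fell by 0.61 (adjusted p = 0.0108, edgeR with Benjamini-Hochberg). Without 0 h replicate 1 or 6 h replicate 1 the first call was lost (adjusted p = 0.0556 and 0.0663 in edgeR with Benjamini-Hochberg), and without 1 h replicate 1 or 6 h replicate 1 the second (0.0577 and 0.0618). With the block, both calls held in all 9 fits that left out a library. Gm17597 overlaps Tef on the opposite strand.

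Hlf (ENSMUSG00000003949, chromosome 11, 90336536 to 90390895), the third activator, showed replicate differences larger than its changes in time. It stood at 27.9, 39.2 and 35.9 CPM at 0 h, 29.0, 43.8 and 33.5 CPM at 1 h and 24.1, 39.2 and 33.1 CPM at 6 h. The groups overlapped, and replicate 1 was the lowest and replicate 2 the highest at each time. The log2 change from 0 h to 6 h was -0.11 with the block, with an interval of 2 SE on either side from -0.23 to 0.02. Hlf gave no call at 6 h against 0 h in either fit (adjusted p = 0.894 without and 0.214 with the block, edgeR with Benjamini-Hochberg). Against 1 h the change was -0.15 with the block, with 2 SE on either side from -0.27 to -0.02, and it did not pass either (adjusted p = 0.0921, edgeR with Benjamini-Hochberg). Within replicate numbers, Hlf was lower at 6 h in 3 of 3 against 0 h, with log2 ratios of -0.21, -0.0007 and -0.12, and in 3 of 3 against 1 h, with -0.27, -0.16 and -0.02.

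Values per kb of exon set genes of different length side by side. The length is that of all annotated exons of a gene merged, not of the transcripts present. Shares and order between genes depend on this choice. On this scale Nfil3 and the 3 PAR bZIP genes made up a changing mixture. Nfil3 gave 8.19%, 8.41% and 8.75% of the summed CPM per kb of the 4 genes at 0 h, 34.1%, 26.0% and 31.9% at 1 h, and 23.8%, 23.4% and 18.2% at 6 h. Tef gave between 64.6% and 69.6% at 0 h, between 48.8% and 50.7% at 1 h and between 48.7% and 54.8% at 6 h. The sum of the 4 was 27.2 ± 0.558 CPM per kb (SD, n = 3) at 0 h, 36.2 ± 1.59 at 1 h and 22.6 ± 2.13 at 6 h. At 1 h the level of Nfil3, 11.1 ± 1.76 CPM per kb (SD, n = 3), stood above those of Hlf (5.30 ± 1.13) and Dbp (1.79 ± 0.0722) and under that of Tef (18.0 ± 0.982). At 6 h Nfil3 (4.93 ± 0.936) and Hlf (4.81 ± 1.14) did not differ beyond their spread. These shares contain the rise by which Nfil3 was chosen and describe it on another scale.

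**Figure D2:**
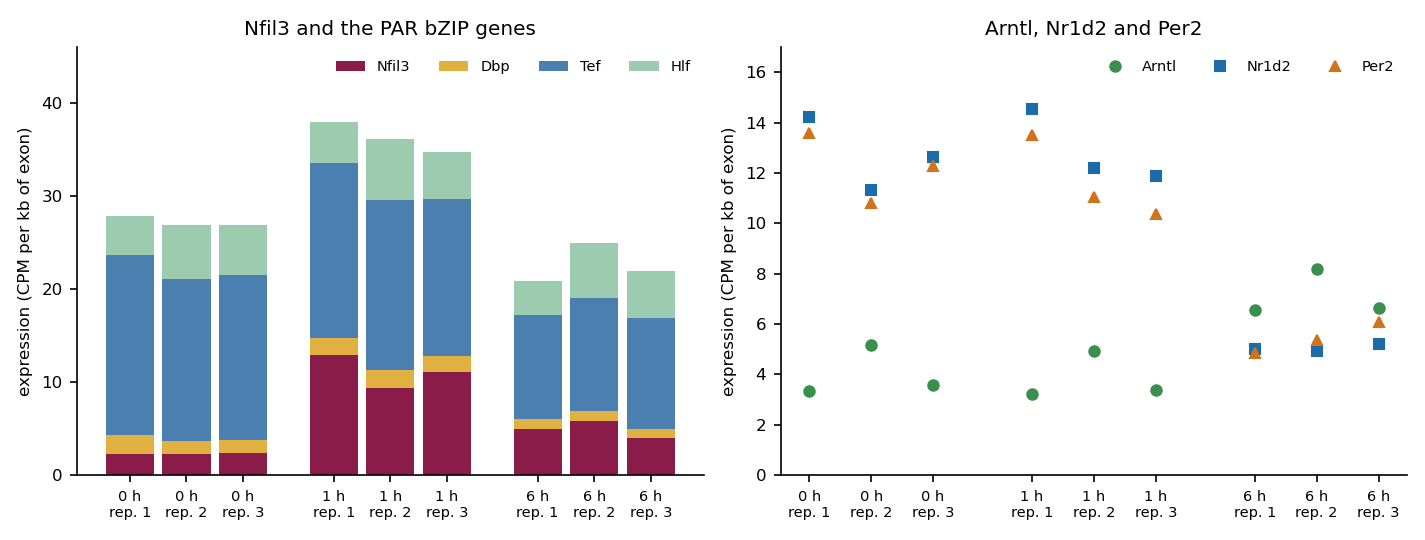
Expression in CPM per kb of exon in each of the 9 libraries. Left, stacked bars for Nfil3, Dbp, Tef and Hlf, in which Nfil3 takes between 8.19% and 8.75% of the bar at 0 h and between 26.0% and 34.1% at 1 h. Right, points for Arntl, Nr1d2 and Per2, where Arntl lies under both other genes at 0 h and 1 h and above both at 6 h.

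Of the Period genes, negative regulators of CLOCK and ARNTL, Per1 rose at 1 h in the fit with the block and Per2 fell at 6 h in both fits. Per1 (ENSMUSG00000020893, chromosome 11, 69095217 to 69109960) had 17.6, 17.9 and 23.1 CPM at 0 h. It had 32.7, 29.2 and 28.4 CPM at 1 h, above every other library, and 15.2, 16.7 and 17.8 CPM at 6 h, which overlapped with 0 h. The mean at 1 h was 1.54-fold that at 0 h, and all 3 replicates were higher. The log2 change of 0.62 (SE 0.13) did not pass the test without the block (adjusted p = 0.416, edgeR with Benjamini-Hochberg). With the block it was 0.63 (SE 0.09) and passed (adjusted p = 0.0022, edgeR with Benjamini-Hochberg), also without any 1 library, but not without all 3 libraries of replicate 2 (adjusted p = 0.0529). DESeq2 without the block also called Per1 at 1 h. At 6 h against 0 h the log2 change of Per1 was -0.23 with the block (adjusted p = 0.0753, edgeR with Benjamini-Hochberg) and did not pass. From 1 h to 6 h Per1 fell by 0.86 on the log2 scale, which passed without the block (adjusted p = 0.0195, edgeR with Benjamini-Hochberg). That call was lost in the 6 fits that left out any 1 of the 1 h or 6 h libraries (adjusted p between 0.0523 and 0.102 in edgeR with Benjamini-Hochberg), and with the block it held in all 9 such fits.

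Per2 (ENSMUSG00000055866, chromosome 1, 91415982 to 91459324) was not called at 1 h against 0 h, with a log2 change of -0.07 in both fits. Its values were 79.6, 63.3 and 71.9 CPM at 0 h, 79.0, 64.7 and 60.8 CPM at 1 h, and 28.3, 31.5 and 35.5 CPM at 6 h. The 0 h and 1 h groups overlapped, and the 6 h libraries were all lower than the rest. The mean at 6 h was 2.25-fold lower than at 0 h, and the log2 change of -1.17 (SE 0.13) passed the test (adjusted p = 0.00767, edgeR with Benjamini-Hochberg). From 1 h to 6 h the change was -1.10 (adjusted p = 0.0109, edgeR with Benjamini-Hochberg), and this call was lost without 1 h replicate 1 or 6 h replicate 1 (adjusted p = 0.05002 and 0.0568).

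Of the REV-ERB genes, Nr1d1 rose at 1 h in the fit with the block and Nr1d2 fell at 6 h in both fits. Nr1d1 (ENSMUSG00000020889, chromosome 11, 98767932 to 98775333) was at 19.5, 25.4 and 21.8 CPM at 0 h and at 28.5, 38.7 and 26.6 CPM at 1 h. At 6 h it was at 17.5, 24.3 and 18.3 CPM. Replicate 2 was the highest at each time, and the 1 h group lay above both others without overlap. The log2 change from 0 h to 1 h was 0.49 (SE 0.19) and did not pass without the block (unadjusted p = 0.0281, adjusted p = 1.00 after rounding, edgeR with Benjamini-Hochberg). With the block it was 0.48 (SE 0.07) and passed (adjusted p = 0.00141, edgeR with Benjamini-Hochberg), and without the 3 libraries of replicate 2 it did not (adjusted p = 0.0607). The change from 0 h to 6 h was -0.16 with the block (adjusted p = 0.0867, edgeR with Benjamini-Hochberg). The fall from 1 h to 6 h, by 0.64 on the log2 scale, passed with the block alone (adjusted p = 1.53e-05 with and 0.118 without it, edgeR with Benjamini-Hochberg). Nr1d1 shares exon sequence with Thra on the opposite strand, and their reads cannot be told apart without the strand setting. Thra had a log2 change of 0.12 from 0 h to 1 h and of 0.49 from 1 h to 6 h with the block, the latter opposite in sign to that of Nr1d1.

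Nr1d2 (ENSMUSG00000021775, chromosome 14, 18204054 to 18239127) had the largest fall of the 10 genes at 6 h against 0 h and against 1 h. It stood at 76.9, 61.2 and 68.2 CPM at 0 h, at 78.7, 65.9 and 64.2 CPM at 1 h and at 27.2, 26.7 and 28.1 CPM at 6 h. The 3 replicates lay close together at 6 h, and all were under the lowest earlier library. The mean at 6 h was 2.52-fold lower than at 0 h, with a log2 change of -1.33 (SE 0.11, adjusted p = 0.00316, edgeR with Benjamini-Hochberg). Against 1 h the change was -1.35 (SE 0.11, adjusted p = 0.00246, edgeR with Benjamini-Hochberg), and both calls held without any 1 library in either fit.

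Of the positive limb, Arntl rose at 6 h in the blocked fit while Clock changed little. Arntl (ENSMUSG00000055116, chromosome 7, 113207465 to 113314126) had 25.1, 38.8 and 26.9 CPM at 0 h, 24.1, 37.1 and 25.3 CPM at 1 h, and 49.4, 61.7 and 49.9 CPM at 6 h. Replicate 2 was the highest at each time, and the 6 h group lay above all other libraries. The mean at 6 h was 1.77-fold that at 0 h. Without the block the log2 change of 0.82 (SE 0.22) did not pass (adjusted p = 0.0912, edgeR with Benjamini-Hochberg). With the block it was 0.84 (SE 0.07) and passed (adjusted p = 1.07e-06, edgeR with Benjamini-Hochberg), also without any 1 library or any replicate number. Against 1 h the change was 0.92 (SE 0.07) with the block (adjusted p = 6.62e-07, edgeR with Benjamini-Hochberg). Gm45355 overlaps Arntl on the opposite strand.

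Clock (ENSMUSG00000029238, chromosome 5, 76209868 to 76304792), the partner of Arntl, had 109, 112 and 104 CPM at 0 h, 111, 112 and 86.4 CPM at 1 h and 97.2, 91.7 and 90.2 CPM at 6 h. All 6 h values were under all 0 h values, and the 1 h libraries spanned both. The log2 change from 0 h to 6 h was -0.22 (SE 0.06) with the block and passed (adjusted p = 0.0186, edgeR with Benjamini-Hochberg), but not without it (adjusted p = 0.319). The call was lost when 6 h replicate 1 or 2, or 0 h replicate 2 or 3, was left out, and the adjusted p then reached 0.149 (edgeR with Benjamini-Hochberg). Ube2n-ps1 and Gm43658 lie within Clock on the same strand and share no exon with it. Gsk3b, a kinase gene of the wider lists, was also lowest at 1 h in replicate 3, at 188 CPM against up to 281 CPM in the other 1 h libraries. The part of this library in the Clock result was not tested beyond leaving it out and removing the trends of each library in exon length and GC content. With all 9 libraries and the block, the change from 1 h to 6 h was -0.14 (adjusted p = 0.105, edgeR with Benjamini-Hochberg). Without 1 h replicate 3 it passed (-0.24, adjusted p = 0.00109, edgeR with Benjamini-Hochberg), as did Hlf in the same comparison (-0.21, adjusted p = 0.00979). With the block and the trends removed, Clock and Hlf were both called in this comparison with all 9 libraries, as were 38.3% of all tested genes.

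The ratio of Arntl to its repressor Nr1d2, in CPM per kb, was 0.235, 0.456 and 0.284 at 0 h, 0.220, 0.404 and 0.284 at 1 h, and 1.31, 1.66 and 1.28 at 6 h. The order of the 2 genes was thus the opposite at 6 h in all 3 replicates, while the ratios at 0 h and 1 h overlapped. At 0 h the levels ran from Tef (18.1 ± 1.07 CPM per kb, SD, n = 3) to Dbp (1.62 ± 0.345). Nr1d2 (12.7 ± 1.45) and Per2 (12.2 ± 1.39) overlapped between libraries, but within each of the 3 replicates Nr1d2 was the higher. Clock (7.89 ± 0.278) and Nr1d1 (7.22 ± 0.973) were neighbours in that order and also overlapped. At 6 h Arntl (7.13 ± 0.924), Clock (6.78 ± 0.271) and Nr1d1 (6.504 ± 1.22) were next to each other within their spread, behind Tef (11.8 ± 0.522).

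**Figure D3:**
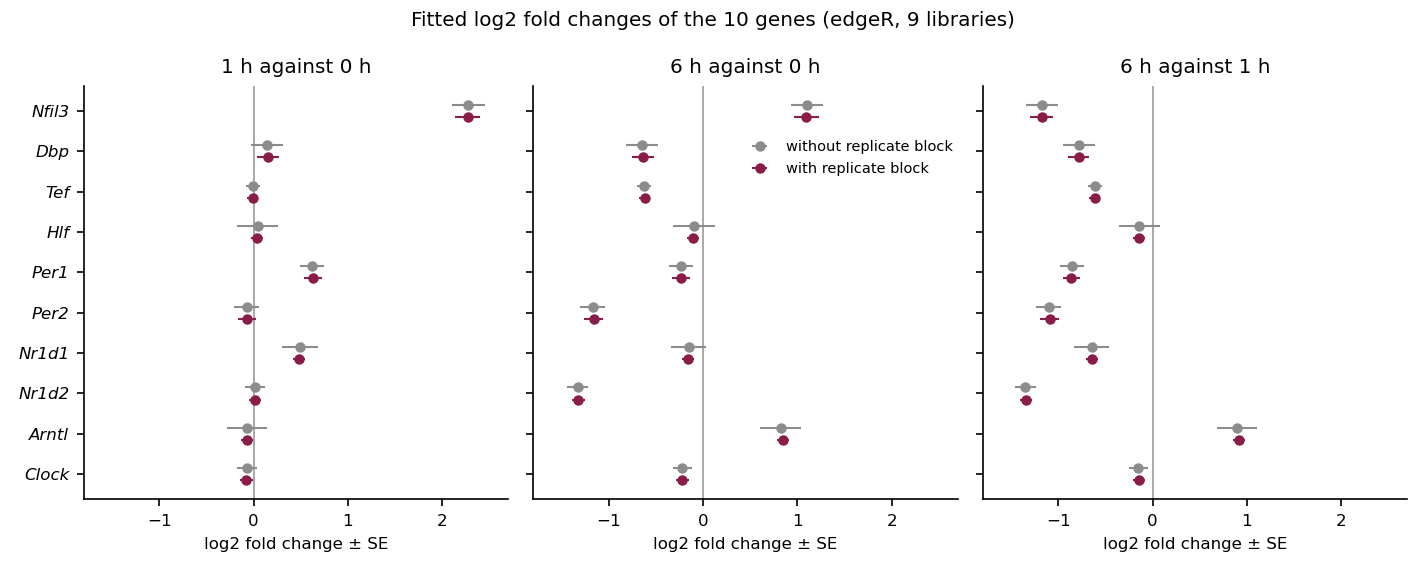
Fitted log2 fold changes with their standard errors for the 10 genes in the 3 comparisons, from edgeR without the replicate block (grey) and with it (red). The estimates of the fits nearly coincide, and the standard errors are smaller with the block in all 30 pairs. At 6 h against 0 h Nr1d2 (-1.33) and Per2 (-1.17) lie farthest to the left and Nfil3 (1.10) and Arntl (0.82) to the right.

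Of the 9 genes beside Nfil3, 3 were called lower at 6 h against 0 h without the replicate block and 5 with it. The comparisons share libraries, so their counts are not independent of each other, and the genes were chosen with results of these data known. At 1 h against 0 h edgeR without the block called 0 of the 9, with 2 at an unadjusted p under 0.05. Over all 18858 tested genes, 0.0424% were called higher in this comparison. DESeq2 called 1 of the 9 higher, where it called 0.292% of all genes higher and 0.233% lower. With the block 2 of the 9, Per1 and Nr1d1, were called higher, where 1.36% of all genes were higher and 2.14% lower. At 6 h against 0 h, 3 of the 9 were lower (Tef, Per2 and Nr1d2) and 0 were higher without the block, where 0.955% of all genes were lower and 1.46% higher. In edgeR 1 was higher at an unadjusted p under 0.05, and DESeq2 called 4 lower and 1 higher, against 4.30% and 4.97% of all genes. With the block 5 were lower, Dbp and Clock in addition, and 1, Arntl, was higher, against 17.5% and 17.4% of all genes. At 6 h against 1 h, 4 were lower without the block (Tef, Per1, Per2 and Nr1d2) and 0 higher, against 0.663% and 1.48% of all genes, with 1 higher at an unadjusted p under 0.05, and DESeq2 called 6 lower and 1 higher, against 4.02% and 4.93%. With the block 6 of the 9 were lower and 1 was higher, against 17.5% and 18.0% of all genes. The median log2 change of all 10 genes with the block was 0.03 at 1 h against 0 h, -0.22 at 6 h against 0 h and -0.71 at 6 h against 1 h, beside medians between -0.0009 and 0.0007 over all tested genes.

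Wider lists of 51 clock-related genes, all of them tested, were described in the same way. Over the 51 genes edgeR without the block called 0 at 1 h against 0 h (5 at an unadjusted p under 0.05, 3 by DESeq2), 1 lower at 6 h against 0 h and 3 lower at 6 h against 1 h. With the block the counts were 6 higher and 4 lower at 1 h against 0 h, where 1.36% and 2.14% of all genes were called. They were 8 higher and 20 lower at 6 h against 0 h (17.4% and 17.5% of all genes). At 6 h against 1 h they were 7 higher and 19 lower (18.0% and 17.5%). The genes named below are those with the smallest p in the blocked fit, up to 4 for each list and comparison, and their values come from that fit unless stated.

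Among the 12 other core and auxiliary clock genes, 4 were higher and 1 lower at 1 h against 0 h. Over all genes these shares were 1.36% and 2.14%. Ciart, a clock repressor, went from 5.15 ± 0.912 CPM (SD, n = 3) before induction to 8.99 ± 1.26 CPM at 1 h. This was a log2 change of 0.81 (adjusted p = 0.00311, edgeR with Benjamini-Hochberg). Bhlhe40, which encodes the E-box repressor DEC1, rose by 0.45 to 80.1 ± 6.33 CPM (SD, n = 3), and Cry2, a partner of the PER proteins, rose by 0.45 as well. Rora, an activator at ROR elements, rose by 0.35. After 6 h, against 0 h, 7 of the 12 were lower and 3 higher, beside 17.5% and 17.4% of all genes. Rorb fell by 0.72 on the log2 scale, Bhlhe41 (DEC2) fell by 0.58 and Cry1 fell by 0.30, whereas Cry2 was 0.32 higher. From 1 h to 6 h Ciart fell by 1.22 and Bhlhe40 fell by 0.71, and these were the calls that also passed without the block (adjusted p = 0.0142 and 0.0140, edgeR with Benjamini-Hochberg). The list median at 6 h against 0 h was -0.24.

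The 10 kinases and ubiquitin ligases that set the stability of clock proteins gave no call at 1 h. In that comparison, 0 of them passed in edgeR with or without the block and 0 in DESeq2, with 0 at an unadjusted p under 0.05 without the block. At 6 h against 0 h, 3 were lower and 0 higher with the block, beside 17.5% and 17.4% of all genes. Among the 3 were Fbxl21, which fell by 0.92 at only 1.95 ± 1.09 CPM (SD, n = 3) at 0 h, and the kinase subunit Csnk2a1, which fell by 0.20. From 1 h to 6 h the deubiquitinase gene Usp2 rose by 0.22.

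Among the 14 genes of cAMP, glucocorticoid and calcium input, 1 was lower at 1 h against 0 h, beside 2.14% of all genes. It was Sik1, a kinase that restrains CREB coactivators, which fell by 0.52 (SE 0.08, adjusted p = 0.00356, edgeR with Benjamini-Hochberg), whereas edgeR without the block called 0 of the 14, with 0 at an unadjusted p under 0.05, and DESeq2 without the block called 0. In the comparison of 6 h with 0 h, 5 were lower and 2 higher, beside 17.5% and 17.4% of all genes. Sgk1, a kinase gene induced by glucocorticoids, stood at 45.9 ± 1.57 CPM before induction and 19.9 ± 6.55 CPM after 6 h (SD, n = 3), and was the member of the 51 genes that also passed without the block in this comparison (log2 change -1.21, adjusted p = 0.0361, edgeR with Benjamini-Hochberg). Fkbp5, which glucocorticoids also induce, fell by 0.49 with the block, while Tsc22d3 (GILZ), of the same class, was 0.31 higher.

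At 1 h against 0 h, 2 of the 10 output genes were higher and 1 lower with the block, against 1.36% and 2.14% of all genes. Noct, which encodes the rhythmic enzyme nocturnin, was at 24.5 ± 2.37 CPM before induction and rose to 38.8 ± 3.39 CPM at 1 h (SD, n = 3), a log2 change of 0.67 (adjusted p = 0.000724, edgeR with Benjamini-Hochberg), and from 1 h to 6 h it fell by 0.62. The latter passed without the block as well (adjusted p = 0.0440, edgeR with Benjamini-Hochberg). Cdkn1a, the gene of the cell cycle inhibitor p21, rose by 0.30 at 1 h and Klf10 fell by 0.50. At 6 h against 0 h, 4 of the 10 were lower and 2 higher, against 17.5% and 17.4% of all genes. Tspan4 fell by 0.76, Klf10 by 0.64, Pfkfb3, a regulator of glycolysis, by 0.59 and Wee1, a mitotic kinase gene, by 0.46. Nampt, the gene of an enzyme of NAD synthesis, was 0.29 higher at 6 h than at 1 h. Of the 5 C/EBP relatives, Cebpa fell by 0.64 from 0 h to 6 h at a level of 4.73 ± 0.846 CPM at 0 h (SD, n = 3), and Cebpg fell by 0.25 from 0 h to 1 h and was 0.44 higher at 6 h than at 1 h.

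**Figure D4:**
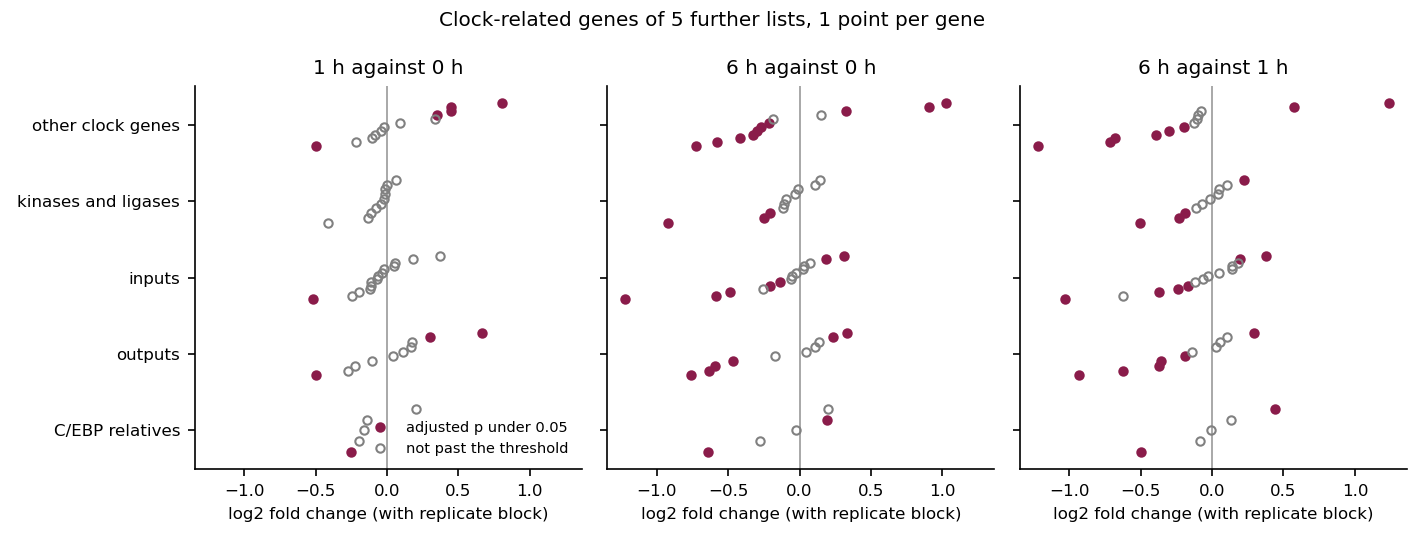
Log2 fold changes from the fit with the replicate block for the 51 genes of the 5 further lists, 1 point per gene, in the 3 comparisons. Filled points had an adjusted p under 0.05 (edgeR with Benjamini-Hochberg) and open points did not, with 10 filled points at 1 h against 0 h, 28 at 6 h against 0 h and 26 at 6 h against 1 h. Of all tested genes, 3.51%, 34.9% and 35.6% passed in these comparisons.

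The genes whose log2 CPM over the 9 libraries was most like that of Nfil3, among 13606 genes with a mean of at least 1 CPM, were Nfkbiz (Pearson r = 0.980), Zfp36 (0.973), Prickle1 (0.970), Npas4 (0.969) and Gadd45b (0.959). Nfkbiz encodes an atypical IκB protein, Zfp36 an mRNA decay factor and Npas4 a neuronal activity-dependent bHLH-PAS factor. The points share libraries, depth and replicate numbers, and these values are a description. At 1 h against 0 h the fitted log2 changes were 2.73 for Nfkbiz, 1.15 for Zfp36, 1.69 for Prickle1, 4.65 for Npas4 and 2.41 for Gadd45b, beside 2.28 for Nfil3. With log2 CPM centred within each replicate number, Npas4 and Prickle1 remained among the 5, with Erf, Rgs2 and Arl4c in place of the others. Most like Dbp were Cfap300 (0.965), ENSMUSG00000074873 (0.956), Gm6877 (0.948), Ift74 (0.946) and mt-Nd4 (0.946), and none of these 5 remained with centred values. None of the 10 genes was among the 5 most like Nfil3 or Dbp.

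Over the whole series the total count was between 65871454 and 105592597 per library. The 8 NSC markers were all at 1 CPM or more in every library, with Nes, Vim and Sox2 among them. The 5 microglial and 3 endothelial markers were all under 1 CPM, and 3 of 4 oligodendrocyte markers were under 1 CPM in every library at 0 h and 1 h. Of 3 ependymal markers Foxj1 was present, at 36.4 to 90.9 CPM, and Rsph1 and Tmem212 were under 1 CPM. The 6 neuroblast and neuronal markers summed to between 20.5 and 40.9 CPM at 0 h, 26.7 and 44.1 CPM at 1 h and 59.1 and 123.3 CPM at 6 h. Most of that sum was Syt1. It was at 10.5, 24.4 and 33.5 CPM at 0 h and at 39.8, 57.6 and 113.5 CPM at 6 h. Tubb3, Rbfox3 and Snap25 were also higher at 6 h than at 0 h in 3 of 3 replicates. In contrast, Dlx2 was lower at 6 h in 3 of 3 replicates and Dcx in 2 of 3. Of the 2 pericyte markers, Pdgfrb was at 0.760, 0.627 and 4.97 CPM at 6 h, higher than at 0 h in 3 of 3 replicates, and Rgs5 was lower in 3 of 3, at 1.56, 0.716 and 3.69 CPM at 0 h and 0.828, 0.407 and 2.30 CPM at 6 h. Their part in the changes of Tef, Per2, Nr1d2 and Arntl at 6 h was not tested.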

How the data were processed

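RNA-seq libraries from NSC cultures at 3 times after induction (0, 1 and 6 h, 3 replicates each) were analysed from the deposited table of raw counts per Ensembl gene. The authors aligned paired-end reads to GRCm38 (mm10) and counted them with STAR 2.5.3a, after quality assessment with FastQC, and tested with DESeq2 1.22.1, according to the submitters' processing notes. The deposited counts were not normalised. The strand setting of the counting is not given in the sources used here. Symbols, exon lengths and positions came from GENCODE M21 (GRCm38), which held 48144 of the 48526 identifiers.

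The analysis used edgeR 4.0.16 in R 4.3.3 (filterByExpr, minimum count 10, minimum total count 15, TMM factors between 0.972 and 1.02, glmQLFit and glmQLFTest on all 9 libraries with time point as the factor) and DESeq2 1.42.0, and tables and plots were made with matplotlib 3.10.9, numpy 2.4.6 and pandas 2.3.3 in Python 3.11.15. Benjamini-Hochberg adjustment was over all 18858 tested genes, with a threshold of 0.05. Standard errors were derived from the F statistic. CPM are deposited counts divided by TMM-scaled library sizes, per 1000000 reads, and log2 CPM used a prior count of 2. Library totals were between 65871454 and 105592597, and no pair of libraries had a chi-square per degree of freedom under 9.66, so none was a repeat of another.

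The sample titles hold the letters B, C and D, which are given here as replicates 1, 2 and 3. After subtraction of time point means, libraries with the same number correlated at 0.733 to 0.800 in 9 pairs, so the numbers pair the samples. Those with different numbers correlated at -0.462 to -0.314 in 18 pairs. These negative values follow from the subtraction once libraries with the same number correlate, and are no separate evidence. The edgeR common coefficient of variation between replicates was 0.277 without a block on replicate number and 0.0627 with it.

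The 10 genes and the 5 wider lists were chosen with earlier results of these data known. All 10 genes were named in each comparison, and in each wider list up to 4 genes with the smallest p in the blocked fit, apart from a gene that is not reported here. Alternatives were the replicate block, DESeq2 with and without it, RLE scaling, no scaling factor, no filter, a mean of at least 1 CPM, 6 libraries only, a threshold of 0.01, and leaving out libraries. Splicing and the other assays of the study were not analysed here.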

Additional observations from a re-analysis of the deposited data

How the results depend on the processing

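Counts over the 10 genes include Nfil3, which was chosen by its rise, so they are a description only. Of the 9 genes beside Nfil3, edgeR without the block called 0 at 1 h against 0 h, 3 at 6 h against 0 h and 4 at 6 h against 1 h. In that fit 0.0424%, 2.42% and 2.14% of all tested genes were called in either direction. Over all 10 genes the counts were 1 (Nfil3 itself), 4 and 5 in the same order. With the replicate block these counts were 3, 7 and 8 (3.51%, 34.9% and 35.6% of all genes), as with DESeq2 and the replicate block (4.97%, 32.4% and 33.2%), and DESeq2 without it called 2 at 1 h against 0 h and 8 at 6 h against 1 h (0.525% and 8.95%). With the replicate block and RLE scaling the counts were 3, 7 and 8 (3.21%, 35.0% and 36.0% of all genes). Without a scaling factor, again with the block, they were the same (4.06%, 34.4% and 35.1%). With the block and only the 6 libraries compared they were 3, 9 and 8 (3.11%, 41.2% and 29.0%). The 6 libraries without the block gave 1 at 6 h against 1 h (0.113%). A threshold of 0.01 left 1 at 6 h against 1 h, and the share of all genes at that threshold was not computed. With the replicate block and the trends of each library in exon length and GC content removed (splines with 4 degrees of freedom, 99.6% of tested genes), 3, 9 and 10 were called (3.73%, 36.0% and 38.3%), and the log2 change at 1 h against 0 h turned sign for Tef (0.0217) and Clock (0.0140).

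Leaving out libraries, with and without the block, gave from 0 to 3 calls at 1 h against 0 h, from 2 to 9 at 6 h against 0 h and from 1 to 10 at 6 h against 1 h. The count of 0 came without 0 h replicate 1 or 0 h replicate 3 and no block. The call that was lost there was that of Nfil3. The share of all tested genes called in these fits changed as well. At 1 h against 0 h it was 0.00519% or less where 0 were called and 1.11% or more where 3 were. At 6 h against 0 h it was 0.202% and 0.245% where 2 were called and 41.7% where 9 were. At 6 h against 1 h it was 0.156% and 0.291% where 1 was called and 34.5% and 33.7% where 10 were. With the block, Per1 was called at 6 h against 0 h without 1 h replicate 1 or 3 (adjusted p = 0.0317 and 0.0145, edgeR with Benjamini-Hochberg) and Nr1d1 without 1 h replicate 3 (0.0259), and Clock was not called without the 3 libraries of replicate 2 (0.168). Signs turned in 8 results that were not called with all 9 libraries, of which Hlf at 6 h against 1 h was called with the block without 1 h replicate 3. At 1 h against 0 h the log2 changes ranged from -0.0516 to 0.0432 for Tef, from -0.141 to 0.174 for Hlf, from -0.186 to 0.0485 for Per2, from -0.0762 to 0.105 for Nr1d2, from -0.297 to 0.154 for Arntl and from -0.140 to 0.0472 for Clock. For Hlf they ranged from -0.258 to 0.0737 at 6 h against 0 h and from -0.304 to 0.0469 at 6 h against 1 h. The cause was not tested. The fits with the replicate block that changed scaling, libraries or trends as well were chosen after seeing the data.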
